A study of Mus musculus with 2 samples.

Results

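The genes described here encode the enzymes that bring pyruvate into the mitochondrial citrate (tricarboxylic acid, TCA) cycle, the enzymes of the cycle itself, and the enzymes that break down the branched-chain amino acids leucine, isoleucine and valine. The 32 members were chosen by name: 5 genes of pyruvate entry, 13 of the cycle and 14 of branched-chain amino acid breakdown, out of 16593 gene symbols that had a probe. Named probes existed for 31 of them, 43 probes in all, and Mccc2 had no probe of that name. A probe was taken as detected where its detection p-value, which compares it with the array's background, was under 0.01. On that rule 29 members were detected on at least 1 array, 28 of them on both, while Pdhx and Hibch were detected on neither. These 29 are the measured members, among 8815 named genes detected on at least 1 array.

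The samples were tibialis anterior muscle, a muscle of the lower leg, from C57/BL6 mice given a subcutaneous injection of DHT or of vehicle at 10 days of age, with the muscle taken 24 h later. DHT is taken to be dihydrotestosterone, since the series concerns sex hormones; that androgen binds the androgen receptor directly. Each group had 1 Illumina bead array, and the labels state neither the sex of the mice nor whether RNA of several mice was pooled. There were no replicates, so no test between the groups was possible and every difference describes these 2 arrays alone.

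Pyruvate made by glycolysis is converted to acetyl-CoA by the pyruvate dehydrogenase complex, which kinases switch off and phosphatases switch on, and the acetyl-CoA is oxidised in the cycle. Branched-chain amino acids are unusual in that muscle itself carries out their first step: a mitochondrial transaminase removes the amino group, and a branched-chain ketoacid dehydrogenase complex, built like pyruvate dehydrogenase, then commits the carbon skeleton to oxidation. After that the routes part. Leucine yields acetyl-CoA and acetoacetate, valine yields propionyl-CoA, isoleucine yields both acetyl-CoA and propionyl-CoA, and propionyl-CoA is carboxylated on its way into the cycle as succinyl-CoA.

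The DHT array was dimmer as a whole, with a median probe signal of 168 against 177 on the vehicle array. Detected probes numbered 11734 on the DHT array and 11949 on the vehicle array. For a gene at the median of all named genes the deposited DHT signal was 0.867 times the vehicle signal, so a gene with equal deposited signals has a positive difference after normalisation. Differences are given below as DHT minus vehicle on the log2 scale after background correction and quantile normalisation, folds are brighter over dimmer on that scale, and an uncorrected fold is one without background correction. Different probes of 1 gene differed among themselves with an SD of 0.26 in that log2 difference, over 1967 genes. The tissue label was checked on markers: all 12 skeletal fibre markers, among them Acta1, Ckm and Atp2a1, were detected on both arrays, while all 6 hepatocyte markers were detected on neither. The probes used for 7 of the 12 fibre markers were above 40000 on both arrays, near the top of the scale, so these markers do not show whether fibre RNA was level. Actn3, a fast fibre protein, gave 0.10 on such a probe and 0.55 and 0.97 on its others.

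Genes of branched-chain amino acid breakdown were higher on the DHT array, and those of pyruvate entry and the cycle differed little. At 1.5-fold, 7 of the 12 measured branched-chain members were higher and 0 lower, with a median log2 difference of 0.80. In the cycle 2 of 13 passed upward and 0 downward (median 0.20), and in pyruvate entry 0 of 4 passed in either direction, with a median of 0.19. For comparison, 13.4% of all 8815 named genes passed 1.5-fold upward and 15.8% downward, around a median of -0.01. The share of higher members was 58.3% for branched-chain breakdown and 11.8% for pyruvate entry and the cycle together. At 2-fold, 5 members were higher, all of them in branched-chain breakdown, and 0 were lower, where 4.61% of all named genes were higher and 6.28% lower. Without background correction 7 members were higher at 1.5-fold, 6 of them in branched-chain breakdown, and 0 lower, against 6.75% higher and 8.43% lower among all named genes. Most probes used for pyruvate entry and cycle genes were brighter on the DHT array than any branched-chain member past 1.5-fold. Their DHT signals went up to 29466 for Idh3g, against 6994 for Aldh6a1. Dimmer detected probes gave more positive differences for Pdhb, Idh3g and Suclg1, and smaller ones for Dbt, Bckdk, Pcca and Pccb. Those of Mdh1 went both ways (0.25 and 0.51, against 0.35 on the probe used). The part of brightness in this contrast was not tested.

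**Figure D1:**
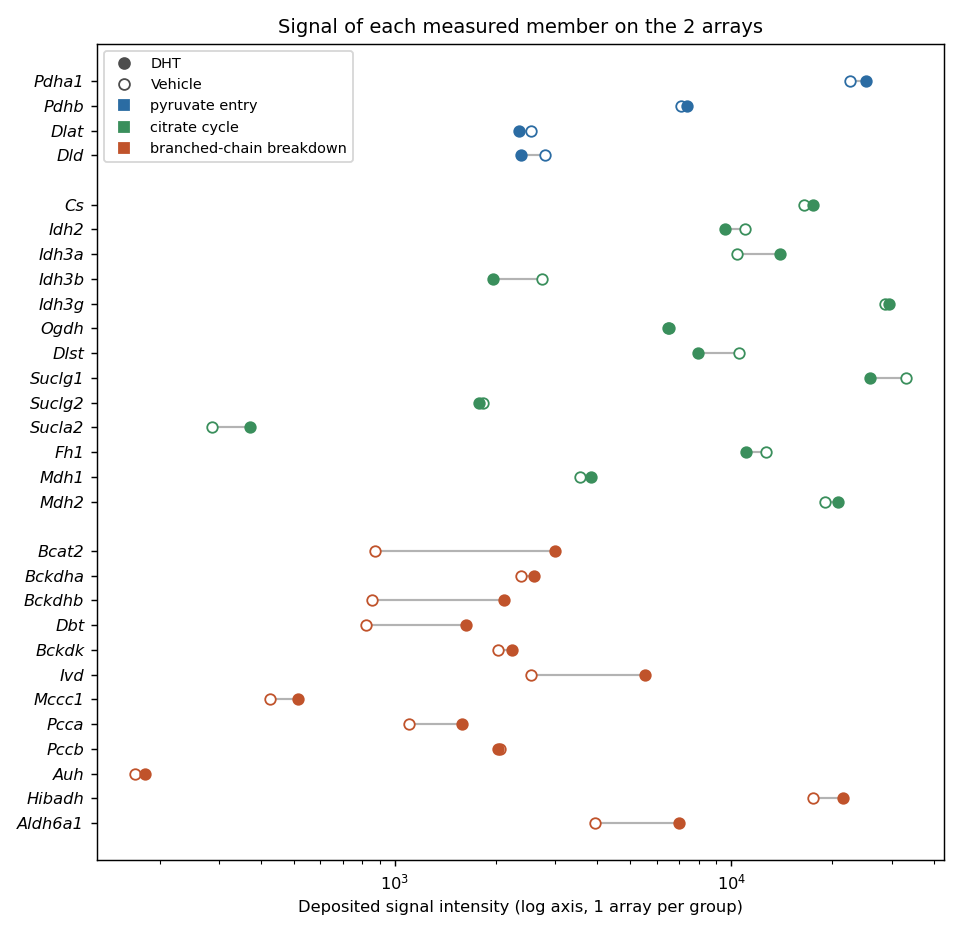
Deposited signal intensity (horizontal log axis) of each measured member on the DHT array (filled) and the vehicle array (open), 1 array per group, coloured by role. Bcat2, Bckdhb, Dbt, Ivd and Aldh6a1 show the widest gaps, each with the DHT signal higher, while most cycle genes have DHT and vehicle signals close together.

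The first step of branched-chain breakdown showed the largest difference of any member. Bcat2, the mitochondrial branched-chain aminotransferase, had a signal of 2993 on the DHT array, against 870 on the vehicle array. It was 4.68-fold higher (log2 difference 2.23, uncorrected 4.09-fold) and ranked 25 among the 7971 named genes detected on both arrays, ordered from the most positive difference. The gene of its cytosolic counterpart, Bcat1, which is no member, went the other way, with 217 on the DHT array and 525 on the vehicle array (-1.81, 3.51-fold lower, uncorrected 2.10-fold). The DHT signal of Bcat1 lay near the lowest detected signal of that array, 180 (190 on the vehicle array), and its other probes were detected on neither array.

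The ketoacid dehydrogenase complex followed, though not all of its subunits did. Bckdhb, the beta subunit of its decarboxylase, had signals of 2111 on the DHT array and 851 on the vehicle array, a 3.32-fold difference (1.73, uncorrected 2.94-fold). Dbt, the transacylase core, had 1628 on the DHT array and 822 on the vehicle array and was 2.66-fold higher (1.41, uncorrected 2.38-fold). Its dimmer probes gave 0.75, detected on the DHT array only, and 0.62, detected on neither array. Bckdha, the alpha subunit that pairs with Bckdhb, stood at 2595 on the DHT array and 2363 on the vehicle array, under 1.5-fold (0.40). Dld, the dehydrogenase that this complex shares with pyruvate dehydrogenase and 2-oxoglutarate dehydrogenase, had 2362 on the DHT array and 2801 on the vehicle array and a difference of -0.01. Thus Bckdhb and Dbt were past 2-fold and the remaining measured subunits were under 1.5-fold.

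The complex is switched off by the kinase Bckdk and switched on by the phosphatase Ppm1k. Both Bckdk probes were under 1.5-fold, at 0.33 and 0.41, with signals on the brighter one of 2234 on the DHT array and 2027 on the vehicle array. Ppm1k, listed with the other branched-chain genes, had 1657 on the DHT array and 745 on the vehicle array, 3.07-fold higher (1.62, uncorrected 2.68-fold). Only the phosphatase of this pair passed 1.5-fold, and whether the pair differed from each other could not be tested with 1 array per group.

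In the leucine route, Ivd, isovaleryl-CoA dehydrogenase, had signals of 5533 on the DHT array and 2533 on the vehicle array and was 2.66-fold higher (1.41, uncorrected 2.57-fold). Mccc1, the biotin-carrying subunit of methylcrotonyl-CoA carboxylase, had 516 on the DHT array and 424 on the vehicle array, a smaller difference of 1.65-fold (0.72) that was 1.44-fold uncorrected. Auh, the hydratase after it, was detected on the DHT array alone, at 180 against 169 on the vehicle array, and was at least 1.06-fold higher. That bound holds for the offset of 16 added after background correction; its log2 difference was 0.57 with that offset, 0.33 with an offset of 50 and 0.18 uncorrected. Of the measured genes of this route Ivd, its first enzyme, had the largest difference, and the dim Auh signal cannot place it.

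In the valine route, Aldh6a1, methylmalonate semialdehyde dehydrogenase, had 6994 on the DHT array and 3921 on the vehicle array and was 2.11-fold higher (1.08). Hibadh, the dehydrogenase that makes its substrate, had 21471 on the DHT array and 17453 on the vehicle array and stayed under 1.5-fold (0.46). Hibch, the hydrolase before both, gave 156 on the DHT array and 136 on the vehicle array, not detected on either.

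Propionyl-CoA carboxylase, where the valine and isoleucine routes meet, has a biotin-carrying alpha and a catalytic beta subunit. Pcca, the alpha subunit, had 1582 on the DHT array and 1101 on the vehicle array and was 1.82-fold higher (0.87), with its other probe at 0.79. Pccb, the beta subunit, had 2028 on the DHT array and 2049 on the vehicle array (0.25), with its other probe at 0.02. Both Pcca probes were past 1.5-fold and both Pccb probes under it.

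Before normalisation the deposited DHT signal was the higher of the 2 for 11 of the 12 measured branched-chain members, Pccb being the exception, and at least 1.5 times the vehicle signal for 5. Among all 8815 named genes 27.0% had the higher deposited signal on the DHT array and 3.19% reached that ratio. The ratio was at least 1.5 for 0 of the 17 measured members of pyruvate entry and the cycle, close to the share of all named genes. The DHT signal was the higher for 8 of the 17 (47.1%), a larger share than the 27.0% of all named genes. After normalisation all 12 branched-chain differences were positive, as were 70.6% of the 17 in pyruvate entry and the cycle and 49.4% of all named genes. Of the 12 branched-chain members 11 were detected on both arrays. The other, Auh, was counted only through its detection on the DHT array, which favours a positive sign.

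**Figure D2:**
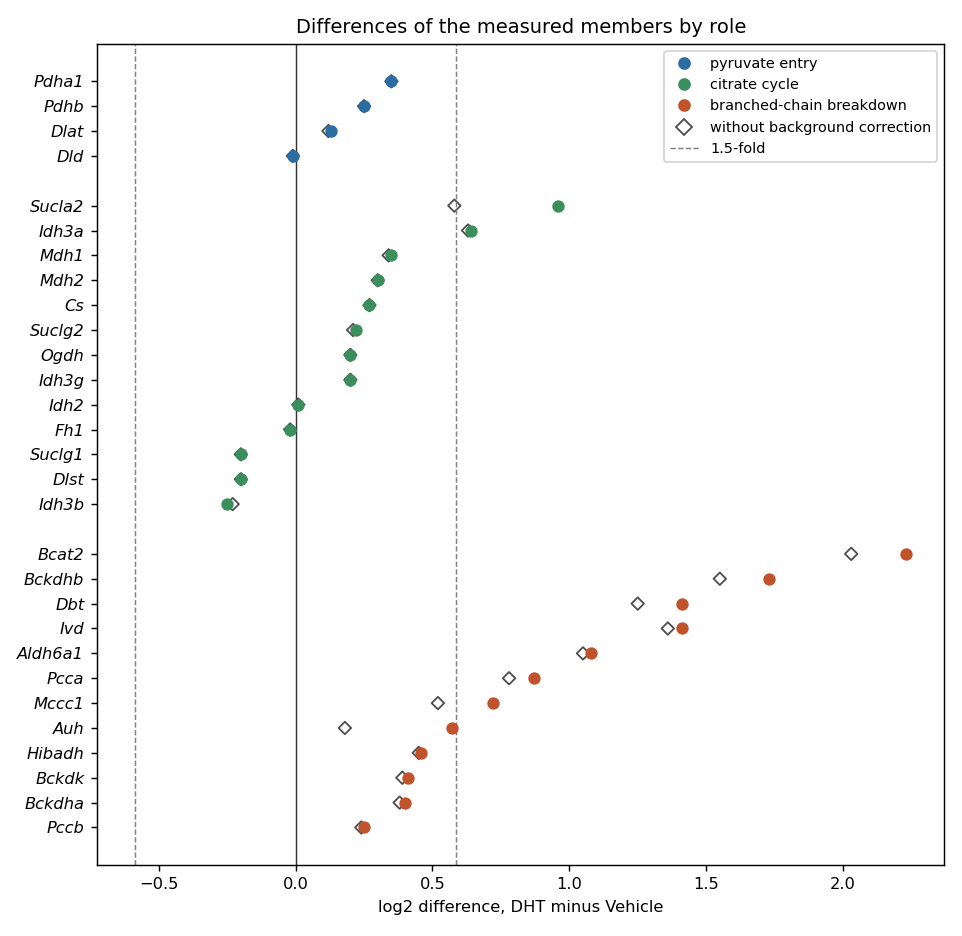
The log2 difference, DHT minus vehicle (horizontal axis), of each measured member, grouped by role and ordered within each group, after background correction (filled circles) and without it (open diamonds). Dashed lines mark 1.5-fold. Branched-chain members run from 0.25 to 2.23, cycle members from -0.25 to 0.96, and the diamonds fall short of the circles mainly for the dim genes Sucla2 and Auh.

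The promoter windows of the branched-chain members past 2-fold are shown because these genes had the largest differences of the members. RefSeq windows on GRCm38.p6, 250 bases before to 50 after a transcription start, matched 30 of the 32 members; Dbt and Idh3a had none in the table. Where a gene had several starts the most upstream window is printed, 5′ to 3′ on the gene's strand. They lie at chr7:45569903-45570202 (plus strand) for Bcat2, chr9:83924887-83925186 (plus) for Bckdhb, chr2:118861744-118862043 (plus) for Ivd and chr12:84450975-84451274 (minus) for Aldh6a1. Capitals mark each match, on either strand, to the CACC-box hexamer CCACCC, a kind of site bound by Krüppel-like factors, and to AGAACA, a steroid receptor half-site.
Bcat2: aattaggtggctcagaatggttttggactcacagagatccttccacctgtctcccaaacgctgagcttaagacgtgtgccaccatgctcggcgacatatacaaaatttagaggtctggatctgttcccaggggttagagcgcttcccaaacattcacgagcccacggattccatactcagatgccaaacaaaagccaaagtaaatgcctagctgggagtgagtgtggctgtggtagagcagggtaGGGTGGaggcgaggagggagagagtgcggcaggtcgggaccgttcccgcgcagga
Bckdhb: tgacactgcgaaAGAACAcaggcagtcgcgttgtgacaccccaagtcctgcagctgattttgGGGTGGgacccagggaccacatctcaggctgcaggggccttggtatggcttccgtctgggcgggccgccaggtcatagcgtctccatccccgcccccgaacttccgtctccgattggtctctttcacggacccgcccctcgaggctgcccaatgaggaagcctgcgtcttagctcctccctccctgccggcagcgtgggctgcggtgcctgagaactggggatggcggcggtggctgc
Ivd: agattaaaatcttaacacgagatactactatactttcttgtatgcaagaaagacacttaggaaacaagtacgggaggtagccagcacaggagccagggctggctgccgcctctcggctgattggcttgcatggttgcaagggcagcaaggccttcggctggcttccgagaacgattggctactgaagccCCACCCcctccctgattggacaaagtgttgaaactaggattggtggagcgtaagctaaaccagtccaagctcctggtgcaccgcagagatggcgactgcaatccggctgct
Aldh6a1: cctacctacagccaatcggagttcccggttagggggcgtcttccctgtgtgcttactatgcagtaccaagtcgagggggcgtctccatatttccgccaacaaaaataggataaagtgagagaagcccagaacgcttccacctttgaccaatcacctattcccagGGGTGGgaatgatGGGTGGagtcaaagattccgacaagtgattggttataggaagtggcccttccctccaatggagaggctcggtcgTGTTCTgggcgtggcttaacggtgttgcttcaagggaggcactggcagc

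Each of these 4 windows held CCACCC or its reverse complement GGGTGG, beginning at position -188 from the start in Bckdhb, -61 in Ivd, -5 in Bcat2, and -86 and -73 in Aldh6a1. Of the 6 branched-chain members past 1.5-fold with a window, all 6 had it in at least 1 window (7 of 10 windows). Over all branched-chain members it was in 7 of 17 windows and 6 of 13 genes, and over pyruvate entry and cycle members in 5 of 22 windows and 4 of 17 genes. The hexamer is common, being in 31.5% of all 32851 promoter windows and in 9201 of 27025 genes. The half-site AGAACA was in 2 of the 10 windows, those of Bckdhb and Aldh6a1. It was in 4 of 17 windows over all branched-chain members, 2 of 22 over pyruvate entry and cycle members, and 19.0% of all windows. The motif AAGGTCA, bound by oestrogen-related receptors, was in 0 of the 10 and in 4.72% of all. The 3 motifs do not overlap in the printed windows. A match of letters is no evidence of binding.

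Pyruvate entry was close to level on the 2 arrays. Pdha1 and Pdhb, the alpha and beta subunits of the decarboxylase, had differences of 0.35 and 0.25, with Pdha1 signals of 25191 on the DHT array and 22497 on the vehicle array and Pdhb signals of 7367 on the DHT array and 7100 on the vehicle array. The second Pdhb probe gave 0.30. Dlat, the acetyltransferase core, had 2340 on the DHT array and 2534 on the vehicle array (0.13). Pdhx, which anchors the dehydrogenase subunit Dld in the complex, had 163 on the DHT array and 153 on the vehicle array and was detected on neither. All 4 measured genes were under 1.5-fold, and only the Pdha1 probe and the second Pdhb probe exceeded the probe-to-probe SD of 0.26.

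In the cycle, Idh3a and Sucla2 passed 1.5-fold. Idh3a, the catalytic subunit of NAD-dependent isocitrate dehydrogenase, had 13960 on the DHT array and 10408 on the vehicle array and was 1.56-fold higher (0.64), only just past the threshold. Its partner subunits did not share that size: Idh3b had 1961 on the DHT array and 2738 on the vehicle array (-0.25), the lowest difference of any member, and Idh3g had probes at 0.20 and 0.50. Sucla2, the ATP-specific beta subunit of succinyl-CoA ligase, had 370 on the DHT array and 286 on the vehicle array and was 1.94-fold higher (0.96), a dim gene whose uncorrected fold was 1.49. Suclg2, the GTP-specific beta subunit, stood at 0.22, and Suclg1, the alpha subunit common to both forms, had 3 probes at -0.20, 0.08 and 0.18 that disagreed in sign.

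The remaining cycle genes lay between -0.20 and 0.35. Cs, citrate synthase, which joins acetyl-CoA to oxaloacetate, had 17542 on the DHT array and 16504 on the vehicle array (0.27). Mdh2, the mitochondrial malate dehydrogenase, had 20720 on the DHT array and 18955 on the vehicle array (0.30), and Mdh1, the cytosolic form of the malate shuttle, was at 0.35. For the 2-oxoglutarate dehydrogenase complex the decarboxylase Ogdh was at 0.20 and the succinyltransferase core Dlst at -0.20, with Dlst signals of 7987 on the DHT array and 10574 on the vehicle array. Fh1, fumarase, was at -0.02 and Idh2, the NADP-dependent isocitrate dehydrogenase, at 0.01. None of these genes reached 1.5-fold. With 1 array per group none of these signs is settled, least of all those of differences below the probe-to-probe SD of 0.26.

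**Figure D3:**
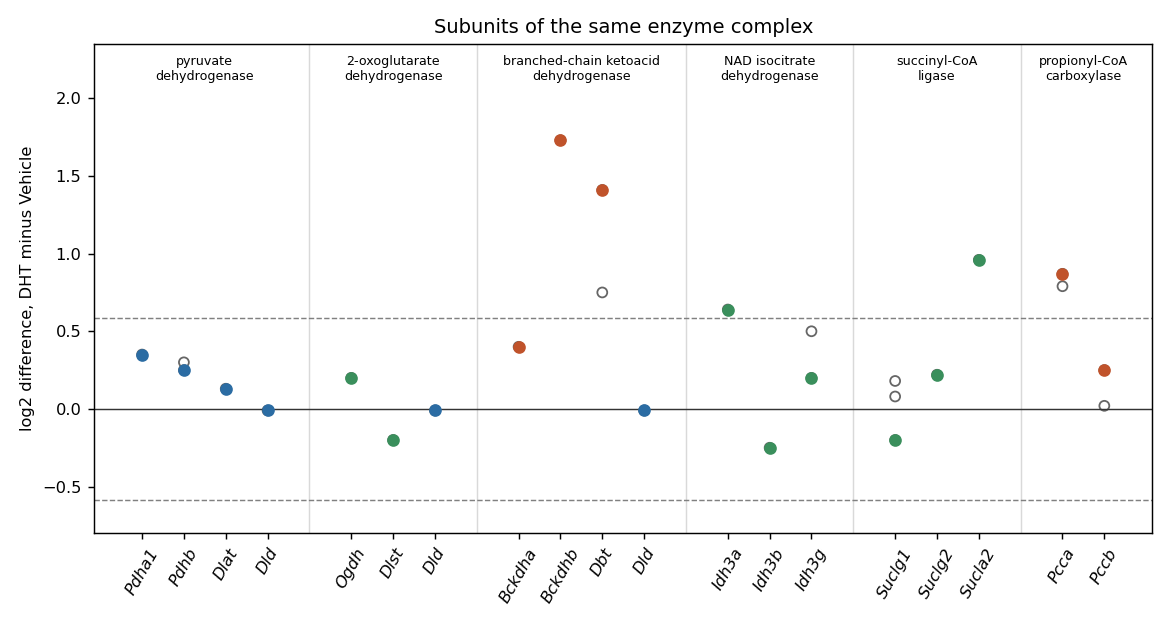
The log2 difference, DHT minus vehicle (vertical axis), of the subunits of 6 enzymes, with the probe used for each gene filled and its other detected probes open, and dashed lines at 1.5-fold. Dld belongs to the first 3 complexes and is drawn in each. Bckdhb (1.73) and Dbt (1.41) lie apart from Bckdha (0.40) and Dld (-0.01), and Pcca (0.87) from Pccb (0.25).

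The other branched-chain genes listed included transporters and regulators as well as enzymes. Of the 16 measured, 8 were higher and 1, Bcat1, was lower at 1.5-fold, around a median of 0.60. Without background correction 5 were higher, around a median of 0.39. Slc3a2, 1 of the 8, was counted only through the DHT array, and 7 of the 15 genes detected on both arrays were higher. Oxct1, the transferase that lets tissues burn the acetoacetate made from leucine and from ketone bodies, had 5228 on the DHT array and 1742 on the vehicle array and was 3.74-fold higher (1.90). Acadsb, which acts on the isoleucine skeleton, had 6020 on the DHT array and 3326 on the vehicle array (1.12), and Echs1, a hydratase shared with fatty acid oxidation, 9865 on the DHT array and 5733 on the vehicle array (1.00). Mcee, which turns the product of propionyl-CoA carboxylase into a form for the cycle, was 1.53-fold higher (0.61). Slc25a44, the mitochondrial carrier of branched-chain amino acids, was 1.58-fold higher (0.66, uncorrected 1.43-fold). The plasma membrane transporter subunit Slc3a2 was detected only on the DHT array, where its level was at least 2.03-fold higher with an offset of 16 (log2 difference 0.82 with an offset of 50 and 0.44 uncorrected), while its partner Slc7a5 was at -0.12.

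Klf15, a Krüppel-like factor known in mouse muscle to raise branched-chain breakdown genes including Bcat2, and itself induced by glucocorticoids, had signals of 305 on the DHT array and 232 on the vehicle array. It was 2.16-fold higher (1.11) and 1.48-fold uncorrected, and it was dim on both arrays. Its part in the differences of the members was not tested.

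The control of pyruvate entry stood out more than its enzymes did. Pdk4, a kinase that switches the complex off, had 1685 on the DHT array and 33827 on the vehicle array and was 18.6-fold lower (-4.22). Pdk2, another kinase of the complex, had 1147 on the DHT array and 830 on the vehicle array and was 1.79-fold higher (0.84), Pdk1 was at 0.10 and Pdk3 at -0.53. Pdp1, a phosphatase that switches the complex on, had 2517 on the DHT array and 1968 on the vehicle array and was 1.56-fold higher (0.65). Pdp2, another phosphatase of the complex, was at -0.02, with a dim second probe at 0.46. Pcx, pyruvate carboxylase, which refills the cycle with oxaloacetate, was detected only on the DHT array, at 317 against 170 on the vehicle array. Its level was at least 3.86-fold higher with an offset of 16, a bound that depends on the offset. Its log2 difference was 2.41 with that offset, 1.74 with an offset of 50 and 1.03 uncorrected. Lipt2, which acts in making the lipoyl group these complexes need, was 1.51-fold lower (-0.59, uncorrected -0.26). The 11 measured genes of pyruvate supply and control had a median of 0.07, and 3 of them passed 1.5-fold upward and 2 downward. Pcx, 1 of the 3, was counted only through the DHT array, and 2 of the 10 genes detected on both arrays passed upward.

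The 14 other measured cycle and linked enzymes had a median of 0.27, and 4 were past 1.5-fold, all upward. These 4 tie cycle intermediates to other pathways: Me1, the cytosolic malic enzyme (1.17, 2.25-fold), Acly, which splits citrate for fat synthesis (1.12, 2.17-fold), Got1, the cytosolic aspartate aminotransferase (0.86, 1.82-fold), and Glud1, glutamate dehydrogenase (0.63, 1.55-fold, uncorrected 1.47-fold, with a dim second probe at 0.07). Acly had 7424 on the DHT array and 4042 on the vehicle array, and Me1 3902 on the DHT array and 2115 on the vehicle array. Succinate dehydrogenase, the enzyme common to the cycle and the respiratory chain, stayed under 1.5-fold, with Sdhb at 0.47, Sdhc at 0.12 and Sdhd at 0.04, though another Sdhb probe gave 0.68. The lowest was Sdhaf4, an assembly factor of that enzyme, at -0.42.

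General mitochondrial genes lay close to the level of all named genes. Their median was 0.03 over 16 measured genes, 1 of which passed 1.5-fold upward and 0 downward. That gene was Ppargc1a, a coactivator of mitochondrial genes (0.68, uncorrected 1.49-fold), followed by its partner receptor Esrra (0.54), and the lowest was the outer membrane channel Vdac2 (-0.52). Respiratory chain subunits in the list, such as Uqcrc1 (0.12), Atp5a1 (0.02) and Cox4i1 (0.04), were near 0. Cox4i1 was above a signal of 40000 on both arrays.

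**Figure D4:**
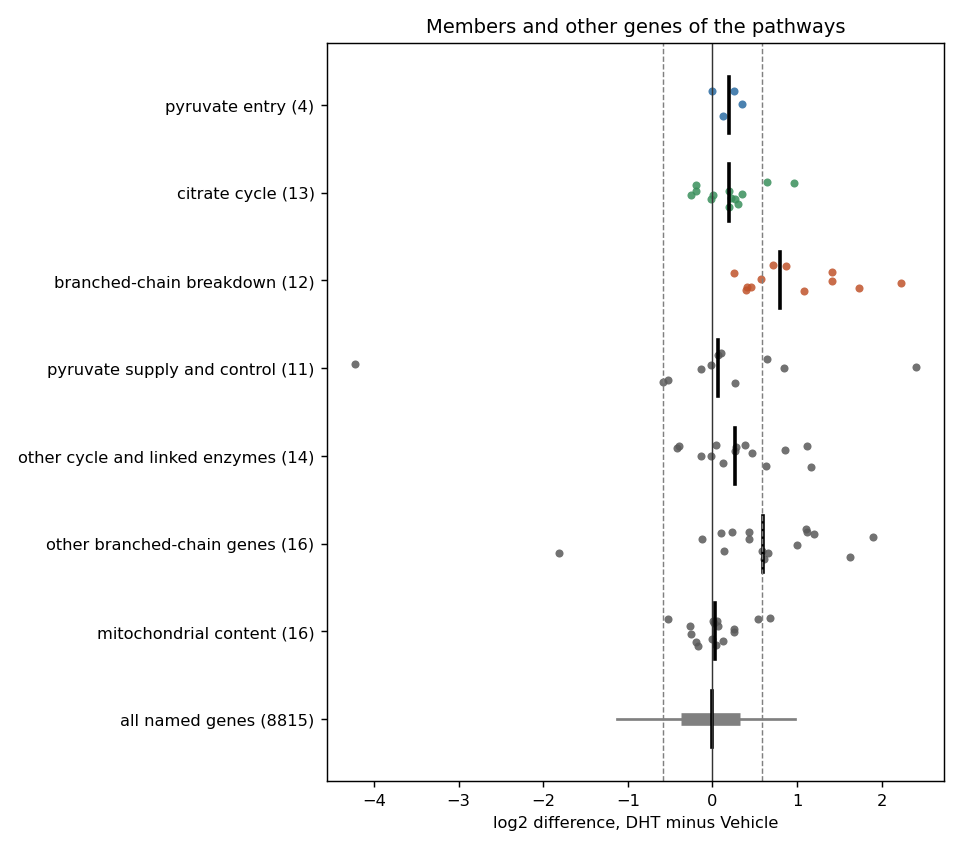
The log2 difference, DHT minus vehicle (horizontal axis), of the members by role and of other listed genes of the pathways. Each point is a gene, the number measured stands in brackets, black bars are medians and dashed lines mark 1.5-fold; for all named genes the thick bar spans the middle 50% and the thin line the middle 90%. Medians are 0.80 for branched-chain members and 0.60 for other branched-chain genes, against 0.03 for mitochondrial content and -0.01 for all named genes.

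Markers of other cell types differed between the same arrays, and in whole muscle a change in the number of cells of a type and a change in RNA per cell cannot be told apart. White adipocyte markers were higher beside the branched-chain genes, 5 of 8 measured past 1.5-fold upward and 0 downward, around a median of 1.11, and 4 of 8 without background correction, around a median of 0.63. Of the 8, 6 were detected on both arrays. Plin1, 1 of the 5 higher, and Lipe were counted only through the DHT array. Adipoq, the fat cell hormone adiponectin, had 3930 on the DHT array and 1818 on the vehicle array (1.42), and the summed signal of the 8 was 31009 on the DHT array and 25474 on the vehicle array. Fabp4, Retn and Pck1 were detected on neither array, Cfd had no probe of that name, and Plin4 was at -0.24. Fat tissue also expresses Bcat2, Acly and Me1, so these values stand beside theirs, and the part of fat cells in the members' differences was not tested. Brown adipocyte markers gave 1 higher of 4 measured, Cidea (0.91), with Ucp1 at -0.40.

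Slow fibre markers were lower, 5 of 10 at 1.5-fold with a median of -0.57, and their summed signal was 107492 on the DHT array and 178223 on the vehicle array. Slow fibres are rich in mitochondria, and the cycle members had a median of 0.20 beside these values. Fibroblast markers (7 of 9 lower, median -1.05), endothelial markers (6 of 7 lower, median -1.22), and neutrophil markers (7 of 8 lower, median -1.97) were mostly lower too. Macrophage markers were lower in 2 of 6 (median -0.36), and of 4 erythroid markers 2 were higher and 1 lower. Ngp and Mpo, among the 7 lower neutrophil markers, and Cx3cr1, 1 of the 2 lower macrophage markers, were counted only through the vehicle array. Without background correction 0 macrophage markers were lower, 1 erythroid marker was higher and 1 lower, and 6 neutrophil markers were lower, around a median of -1.14. Their part in the members' values was not tested.

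**Figure D5:**
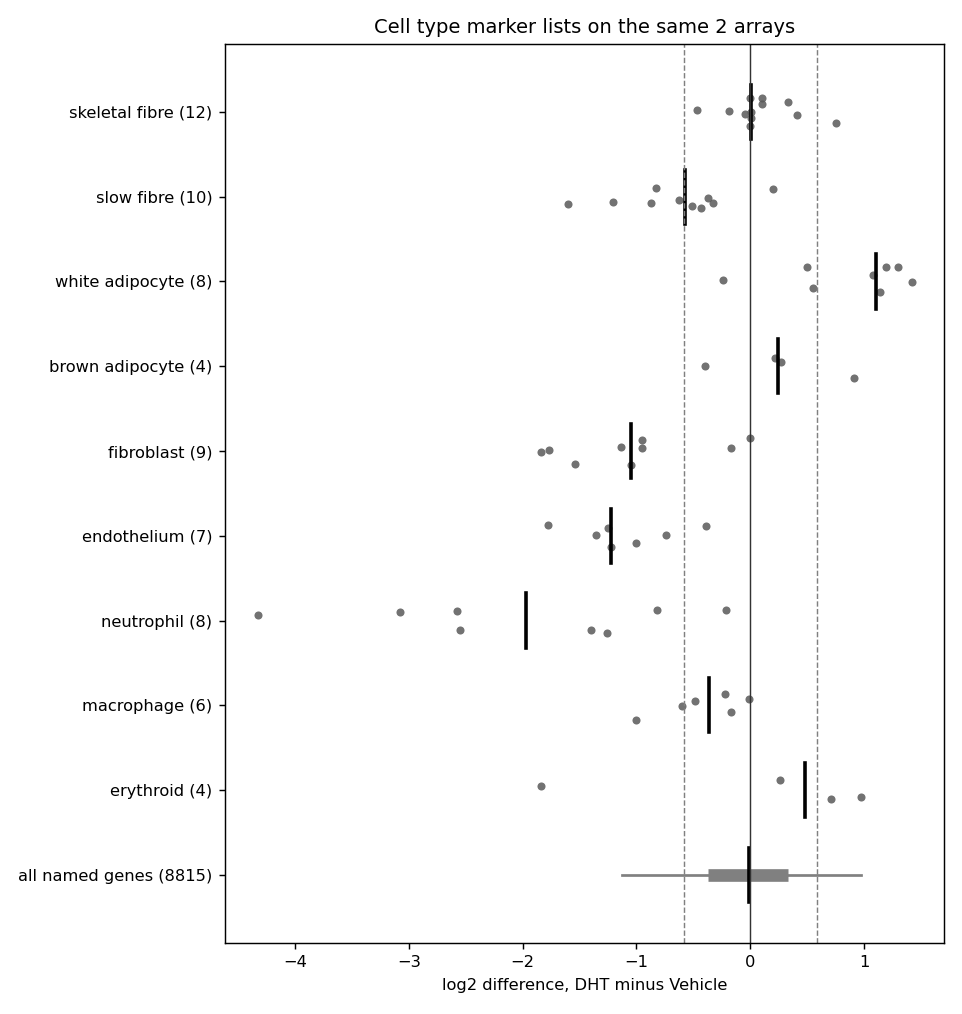
The log2 difference, DHT minus vehicle (horizontal axis), of cell type marker genes, with 1 point per gene, the number measured in brackets, medians as black bars, dashed lines at 1.5-fold, and all named genes drawn as a thick bar (middle 50%) and a thin line (middle 90%). White adipocyte markers have the highest median, 1.11, and neutrophil markers the lowest, -1.97.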

How the data were processed

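Muscle RNA of 1 sample per group (DHT, vehicle) was measured, 2 arrays in all. Per the labels' protocols, 0.55 µg of Trizol-extracted total RNA was made into biotinylated cRNA. The submitters' processing notes name GenomeStudio 2011.1, with no role; a genome build is not given in the sources used here. The deposited signal intensity is linear, not normalized between arrays and not background-subtracted, and the authors deposited a detection p-value per probe beside it. The deposited log2 values lay within 0.000654 of quantile-normalized log2 signals, both columns with a median of 7.43, and served as an alternative.

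From the intensities, limma's neqc (limma 3.58.1, R 4.3.3; offset 16, background inferred from the detection p-values) gave the log2 values. These steps were tested on simulated arrays, with known folds given to probes of middle signal only. That test does not cover dim genes or the brightest ones. Genes were named through the platform annotation: 23978 probes had 1 symbol, 0 several and 1719 none. Each gene was read from 1 probe, the one of highest mean among those detected (p under 0.01) on at least 1 array. A gene detected on 1 array has a bound only, against the lowest detected level of the other array or its own level there. Tables and plots were made in Python 3.11.15 (matplotlib 3.10.9, pandas 2.3.3).

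Named genes were the members past 1.5-fold, the extremes of each role, those detected on 1 array or with probes of opposite sign and examples of each complex, and listed genes past 1.5-fold or extreme in their list. Members and lists were chosen with earlier results of these data known. Alternatives were no background correction, the deposited values, median scaling, offset 50, a detection p of 0.05, detection on both arrays, no probes above 40000 on both arrays, the mean over probes, and a 2-fold threshold. The number of arrays limits the precision.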

Additional observations from a re-analysis of the deposited data

How the results depend on the processing

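Under each of the alternatives run, the 9 members past 1.5-fold kept a positive difference. At a 2-fold threshold 5 members were higher. Without background correction, and likewise in the authors' deposited values, the counts at 1.5-fold moved to 1 higher in the cycle, 1 lower in pyruvate supply and control, 5 higher among other branched-chain genes and 0 among mitochondrial content genes; Sucla2 and Mccc1 were the members no longer past 1.5-fold, at 0.58 and 0.52. The cycle count was 0 at 2-fold. Median scaling gave 11 members higher, 1 lower gene in pyruvate supply and control and 2 higher in mitochondrial content, and it turned the sign of Dld (0.06) and Fh1 (0.12), which were near 0; the median of all named genes moved by 0.04. Offset 50 left 1 lower in pyruvate supply and control. The branched-chain median ranged from 0.65 to 0.87, the cycle median from 0.20 to 0.31 and the pyruvate entry median from 0.19 to 0.28. The mean over probes lowered Dbt to 1.08 and turned the sign of Suclg1 (0.02), whose probes disagreed in sign. Causes of these moves were not tested. No paired analysis was possible because each group had 1 array. With no replicates, the spread between animals is unknown. Dim genes such as Auh, Mccc1, Sucla2 and Klf15 lay near background, where differences are least certain.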

Other observations

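Among muscle genes beside the pathways described, myoglobin and the muscle fatty acid binding protein, both of which serve oxidative metabolism, went in opposite directions. Mb had signals of 33331 on the DHT array and 22479 on the vehicle array (log2 difference 0.75, 1.68-fold higher), and its other probe gave 1.15. Fabp3 had 16776 on the DHT array and 34070 on the vehicle array (-0.87, 1.83-fold lower). Des, the fibre's intermediate filament gene, was at -0.19.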
